A study of Mus musculus with 6 samples.

Results

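The COP9 signalosome is described here through 9 genes, Gps1, Cops2, Cops3, Cops4, Cops5, Cops6, Cops7a, Cops7b and Cops8, taken as every non-control probe that carries 1 of these gene names. They have 14 of the 55681 probes on the array, and all 9 gave a tested feature among 17953. The samples were muscle satellite cells, the resident stem cells of muscle fibres, sorted out of C57BL6 mice, 3 with an Rpt3 knockout specific to these cells and 3 controls. Rpt3, the product of Psmc4, belongs to the ring of ATPases at the base of the proteasome's 19S particle. The Cre driver, the controls' genotype and the age of the mice are not given in the sources used here. RNA was amplified from a small input before labelling with Cy3 and hybridised to 1 Agilent array per mouse.

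The COP9 signalosome removes the small ubiquitin-like protein NEDD8 from cullins, the scaffolds of the cullin-RING ubiquitin ligases, and so lets these ligases be taken apart and rebuilt. Its subunits correspond to those of the lid of the 19S particle: both complexes are built from proteins with a PCI domain and from a pair with an MPN domain, of which 1 is an active metalloprotease. In COP9 that enzyme is Cops5, which cuts NEDD8 from cullins, and in the lid it is Psmd14, which cuts ubiquitin chains from proteasome substrates. The translation initiation factor eIF3 is built on a related plan. The comparison asks whether transcripts of this related complex were higher in Rpt3 knockout cells alongside those of the lid.

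As a group the COP9 genes did not show the higher signal of the lid genes. Of the 9, 4 had higher and 5 lower means in knockout cells, where 55.2% of all features had a higher mean. Their median log2 difference, knockout minus control, was -0.046, beside 0.039 over all features. It was 0.040 over the 8 members well above background on every array, which leaves out Cops7b. The range ran from -0.40 for Cops8 to 0.57 for Cops5. By limma, 0 of 9 passed an adjusted p of 0.05, as did 0% of all features. At an unadjusted p under 0.05, 0 members were higher (2.82% of all features) and 0 were lower (4.38%). In either direction that count was 1 without knockout 3 (Cops5), where 1609 of all 17953 features reached it. With array weights it was 2 (Cops2 and Cops5), where 3675 of all features did. Fits that rest on knockout 3 alone are left out of these counts. There Cops8 was the lowest member, at -0.83. All 9 lid genes of the same table had higher means, with a median log2 difference of 0.70. Of these, 7 were higher at an unadjusted p under 0.05, and 0 passed after adjustment. For knockout 3 alone 7 of 9 lid genes were above 0, with a median of 0.24.

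The arrays differed in ways that touch every value below. Between 44.2% and 57.9% of probes were well above background, the lowest share being that of knockout 3. That array also stood apart on the first principal component (29.3% of the variance), at 70.4 against -24.1 to -4.71 for the others. Knockout 1 and 2 lay in slide row 1, and knockout 3 lay with the 3 controls in slide row 2, so any value within slide row 2 rests on knockout 3 alone. Psmc4 itself had a log2 difference of -0.92 (SE 0.24; limma, adjusted p = 0.428) and was lower on every knockout array than on any control, at 52.9% of the control signal. Whether its probe lies in the deleted stretch is not given in the sources used here. Of 11 satellite cell markers, 5 had higher and 6 lower means in knockout cells, where 55.2% of all features had a higher mean. They ran from 0.49 for Sdc4 to the lowest for Myf5. Myf5 was not well above background on any knockout array and passed the filter only through the controls. Pax7 and Itga7 (-0.27) were well above background on 2 of 3 knockout arrays and also passed only through the controls. Pax7 differed by 0.17 (SE 0.35), Myod1 by 0.0076 (SE 0.22) and Calcr by -1.04 (SE 0.28). At an unadjusted p under 0.05 by limma, 2 markers were lower (4.38% of all features) and 0 higher (2.82%). The groups did not overlap for 3 lower markers (5.84% of all features) and 0 higher ones (5.06%). Both lower counts include Myf5, and by limma 0 passed after adjustment. The 8 satellite markers well above background on every array averaged 0.011, -0.0019 and -0.35 on knockout arrays 1 to 3, relative to all arrays. On control arrays 1 to 3 they averaged -0.13, 0.33 and 0.15, so knockout 3 was lowest. In bulk RNA, fewer cells of a type and less RNA per cell cannot be told apart.

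Cops5, also called Jab1, is the catalytic subunit and had the highest difference of the complex. Values are log2 signals relative to the 75th percentile of each array, and its probe targets chr1:10015012-10015071 of mm9. Cops5 read 0.20, 0.54 and -0.38 on knockout arrays 1 to 3, against -0.40, -0.47 and -0.46 on control arrays 1 to 3. The groups did not overlap, as for 5.06% of all features in this direction, but knockout 3 lay just above the highest control. The knockout mean was 0.12 ± 0.47 (SD, n = 3) and the control mean -0.44 ± 0.035 (SD, n = 3), so the spread lay among the knockouts. The log2 difference was 0.57 (SE 0.27, 95% interval -0.067 to 1.20; limma, adjusted p = 0.776), or 1.48-fold, and did not pass. An exact permutation test gave p = 0.1, which no split of 3 arrays against 3 can go below. Without knockout 3 the difference was 0.82 (limma, unadjusted p = 0.00563, adjusted p = 0.372), and without knockout 2 it was 0.36. For knockout 3 alone, the fit blocked on slide row, it was 0.065 (limma, adjusted p = 0.899).

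Markers of other cells varied between the arrays too, and not all lists in the same way. Each list is given by its mean log2 signal relative to all arrays, over its markers well above background on every array, since Elane, Mmp8 and Hbb-bt passed the filter only through the knockout group and others, S100a8 among them, only through the controls. Of the red blood cell markers 3 of 9 qualified and averaged 0.85, 0.87 and 0.10 on knockout arrays 1 to 3, against -0.15, -0.40 and -1.27 on the controls. Hba-a1 and Hbb-bs, which encode haemoglobin chains, differed by 1.88 (SE 0.44) and 1.77 (SE 0.72), and Slc4a1, the anion exchanger of red cells, by -0.0046 (SE 0.62). Of 10 neutrophil markers Lcn2 alone qualified, at 0.54, 0.77 and -0.49 against -0.44, 0.25 and -0.63. The 6 of 7 endothelial markers averaged 0.27, 0.68 and -0.54, against 0.88, -0.44 and -0.85, and so were highest on control 1. The fibro-adipogenic markers (7 of 7) averaged 0.22, 0.18 and -0.42, against 0.31, -0.31 and 0.030. The 5 of 9 macrophage markers averaged -0.058, 0.014 and 0.22, against -0.12, -0.079 and 0.024, and the 2 of 8 fibre markers 0.17, 0.48 and -0.84, against 0.076, -0.058 and 0.18. Cops5 was high on knockout 1 and 2, where the red blood cell average and Lcn2 were also highest. Within the red blood cell list, Slc4a1 was instead highest on control 2, at 1.37. The endothelial and fibro-adipogenic averages were highest on control 1, and the macrophage average on knockout 3. The part of these cells in the Cops5 signal was not tested.

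By Pearson r over the 6 arrays, 256 other features exceeded 0.9 with Cops5. The 3 most like it were Gm15421 (0.993), Gstk1, a glutathione transferase gene (0.985), and Avp, the vasopressin gene (0.984), given as a description.

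Cops6, the MPN partner of Cops5 that lacks a catalytic site, read 0.63, 0.070 and -0.098 on knockout arrays 1 to 3, against 0.073, 0.35 and -0.20 on the controls (probe chr5:138605147-138605206, mm9). The groups overlapped, and knockout 1 was the high array. The log2 difference was 0.13 (SE 0.27, 95% interval -0.51 to 0.76; limma, adjusted p = 0.982). It was -0.088 without knockout 1, -0.014 without control 3 and -0.17 for knockout 3 alone. Its other probe, at chr5:138605152-138605211 and so almost the same target, gave 0.22 (SE 0.24).

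Cops2 and Cops4 are PCI subunits that clasp the bound cullin-RING ligase. Cops2 read 2.16, 2.51 and 1.56 on knockout arrays 1 to 3, against 1.89, 1.99 and 1.95 on the controls (probe chr2:125657686-125657745, mm9). The knockout arrays lay on both sides of a narrow control range, with an SD of 0.48 (n = 3) against 0.053 (n = 3). The difference was 0.13 (SE 0.28, 95% interval -0.51 to 0.78; limma, adjusted p = 0.982). It was 0.39 without knockout 3, -0.081 without knockout 2 and -0.38 for knockout 3 alone, so its direction depends on single arrays. A further Cops2 probe, at chr2:125656040-125656099, read 1.98, 1.75 and 1.76 against 1.80, 1.62 and 1.87, a difference of 0.066 (SE 0.21).

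Cops4 read 0.32, -0.36 and -0.22 on knockout arrays 1 to 3, against -0.29, -0.61 and 0.15 on the controls (probe chr5:100976669-100976728, mm9). Its groups overlapped, with knockout 1 highest and control 2 lowest. The log2 difference was 0.16 (SE 0.29, 95% interval -0.51 to 0.83; limma, adjusted p = 0.982). It was -0.039 without knockout 1 and -0.020 without control 2.

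Gps1 and Cops3 are further PCI subunits of the ring-shaped scaffold, Gps1 being named as a G protein pathway suppressor. Gps1 read -1.002, -1.21 and -1.08 on knockout arrays 1 to 3, against -0.82, -0.90 and -1.02 on the controls (probe chr11:120650296-120650355, mm9). The groups overlapped between knockout 1 and control 3, and the difference was -0.18 (SE 0.20, 95% interval -0.66 to 0.29; limma, adjusted p = 0.982). The other Gps1 probes, at chr11:120650356-120650415 and chr11:120650362-120650422, overlap each other and had the opposite sign, 0.13 (SE 0.22) and 0.17 (SE 0.27). The direction of Gps1 thus depends on the probe.

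Cops3 read -0.074, -0.77 and -0.76 on knockout arrays 1 to 3, against 0.064, -0.52 and -0.44 on the controls. In both groups array 1 was the high one, and the difference was -0.23 (SE 0.29, 95% interval -0.90 to 0.43; limma, adjusted p = 0.982). It was -0.46 without knockout 1 and -0.052 without control 1. The Cops3 probe is shown because it is the member probe whose annotated target, chr11:59633613-59634853 of mm9, spans 1241 bp with 60 bases, so that it covers separate stretches of the genome.
Cops3 probe: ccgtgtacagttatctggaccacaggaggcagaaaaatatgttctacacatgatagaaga

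Cops7a and Cops7b are alternative forms of the same PCI subunit, so a complex holds either one. Cops7a read -0.26, -0.087 and -0.62 on knockout arrays 1 to 3, against -0.56, -0.29 and 0.025 on the controls (probe chr6:124908931-124908990, mm9). The groups overlapped, and the difference was -0.046 (SE 0.25, 95% interval -0.63 to 0.54; limma, adjusted p = 0.988). It was 0.10 without knockout 3 and 0.10 without control 3. This probe is printed 10 times on the array, and the SD among its spots within an array was 0.13 to 0.26 on the log2 scale. The SD between arrays was 0.27 (n = 3) in knockout and 0.29 (n = 3) in control samples. Another Cops7a probe, at chr6:124909887-124909946, gave -0.082 (SE 0.22).

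Cops7b was dim, and 2 of 3 knockout arrays had it well above background. It read -2.54, -2.14 and -2.55 on knockout arrays 1 to 3, against -2.22, -2.23 and -2.10 on the controls (probe chr1:88503010-88503069, mm9). Knockout 2 fell among the controls and the others below them. The difference was -0.23 (SE 0.22, 95% interval -0.74 to 0.28; limma, adjusted p = 0.964), or -0.37 without knockout 2. Cops7b passed the filter only through the controls, the group in which it is higher.

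Cops8, the smallest PCI subunit of the 9, had the lowest difference. It read 0.22, 0.23 and -0.42 on knockout arrays 1 to 3, against 0.34, 0.27 and 0.62 on the controls (probe chr1:92508963-92509022, mm9). The groups did not overlap, as for 5.84% of all features in this direction, and knockout 3 was far below the rest. The difference was -0.40 (SE 0.26, 95% interval -1.001 to 0.20; limma, adjusted p = 0.898), or 75.7% of the control signal, and did not pass (exact permutation p = 0.1). Without knockout 3 it was -0.19, and for knockout 3 alone it was -0.83 (limma, adjusted p = 0.283).

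**Figure D1:**
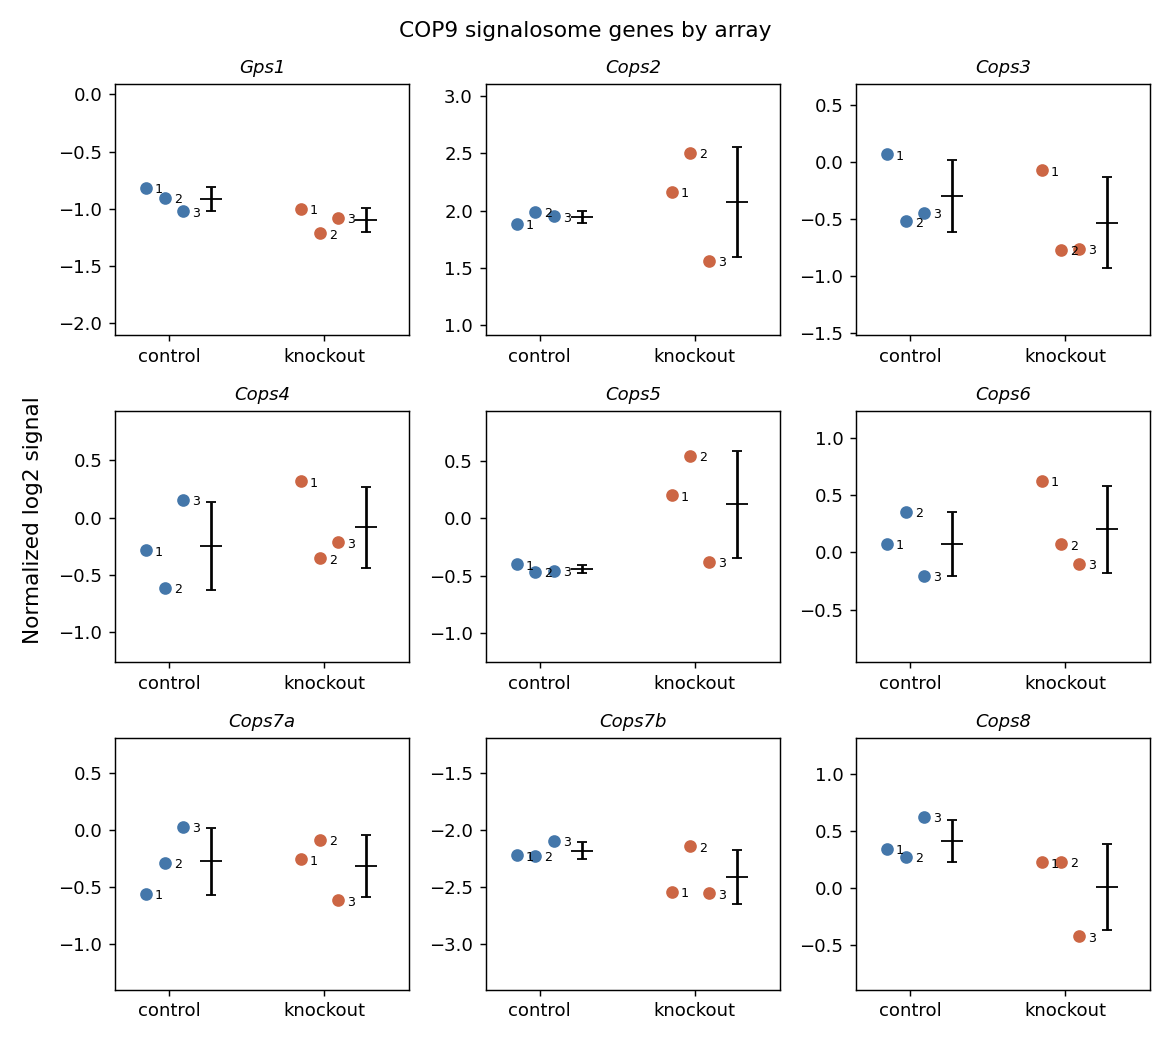
Normalized log2 signal (vertical axis, the same span in every panel) of the 9 COP9 signalosome genes. Points are single arrays labelled by replicate number, by group, and the bars beside them are the mean ± SD of 3 arrays. Only Cops5, above, and Cops8, below, have knockout points that do not overlap the controls.

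Cops9, a small subunit listed in the files under its older name Myeov2 and not among the 9, read 3.40, 3.34 and 2.58 on knockout arrays 1 to 3, against 3.11, 3.04 and 2.59 on the controls. Array 3 was the low one in both groups, and the difference was 0.19 (SE 0.30; limma, adjusted p = 0.982). Usp15, a deubiquitinase that associates with COP9, had a difference of 0.37 (SE 0.26), and Itpk1, an inositol phosphate kinase that binds it, 0.025 (SE 0.28). Neither passed.

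By the median of the complex, knockout 3 was the low array, though among knockout arrays Gps1, Cops3 and Cops4 were lowest on knockout 2. Relative to the control mean of each gene, the median of the 9 members was 0.22 in knockout 1, -0.0041 in knockout 2 and -0.34 in knockout 3. The number of members above their control mean was 6, 4 and 2 in the same order. On the same scale the lid medians were 0.98, 0.87 and 0.24. In knockout 1 the members ran from -0.36 for Cops7b to 0.65 for Cops5, and in knockout 2 from -0.47 for Cops3 to 0.99 for Cops5. In knockout 3 they ran from -0.83 for Cops8 to 0.065 for Cops5. Cops5 was thus the highest member relative to its controls on each knockout array.

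Set against their lid homologues one by one, all 9 COP9 genes had the lower difference. These lid genes lay from percentile 94.1 (Psmd7) to 99.7 (Psmd3) of all differences, so most features of the array also lay below them. The count of 9 is thus not particular to COP9. The value for a pair is the lid log2 difference minus that of the corresponding COP9 subunit, computed within arrays. Its median over pairs was 0.73, or 0.98 without knockout 3 and 0.56 for knockout 3 alone. The 2 complexes differed in signal level. Control means ran from -2.18 (Cops7b) to 1.94 (Cops2), against 0.53 (Psmd14) to 6.14 (Psmd7) for these lid genes. With another background correction (normexp) the pair median was 0.61, Cops5 was at 0.31 and Cops8 at -0.21. The part of signal level in the pair values was not tested. For Cops3 with Psmd3, a PCI subunit of the lid with a difference of 1.56, the pair value was 1.80 (SE 0.15, 95% interval 1.38 to 2.21). For Gps1 with Psmd6, at 0.93, it was 1.12 (SE 0.30, 95% interval 0.30 to 1.94), and for Cops8 with Psmd8, at 0.66, it was 1.06 (SE 0.095, 95% interval 0.80 to 1.33). The metalloproteases Cops5 and Psmd14, at 1.16, differed by 0.60 (SE 0.15, 95% interval 0.17 to 1.02), so the highest COP9 gene also lay below its homologue.

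Cops2 with Psmd11, at 0.70, gave 0.56 (SE 0.068, 95% interval 0.37 to 0.75), the smallest error among the pairs. On knockout arrays 1 to 3 Psmd11 lay 0.77, 1.07 and 0.24 above its control mean, and Cops2 lay at 0.22, 0.56 and -0.38. Both genes were highest on knockout 2 and lowest on knockout 3. The interval included 0 for the other pairs: Cops4 with Psmd12 (0.59, SE 0.29), Cops6 with Psmd7 (0.45, SE 0.23), and Psmd13 with Cops7a (0.73, SE 0.44) and with Cops7b (0.91, SE 0.49), which share that lid gene. In 7 of 9 pairs the value was higher on all 3 knockout arrays than on any control. Of the 9 tested lid genes, 6 were so by themselves (5.06% of all features). The share of other features that would give such pairs was not counted, so the 7 is not particular to COP9. By the exact permutation test each of these 7 pairs had p = 0.1, the smallest possible. Adjusted over the 9 pairs it was 0.129, so none could pass. For 4 of the 8 COP9 genes well above background on every array, the 95% interval of the difference lay below 0.70, the lid median. The share of all features with such an interval was not counted, and the lid median was taken without its error. The count is therefore a description only.

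**Figure D2:**
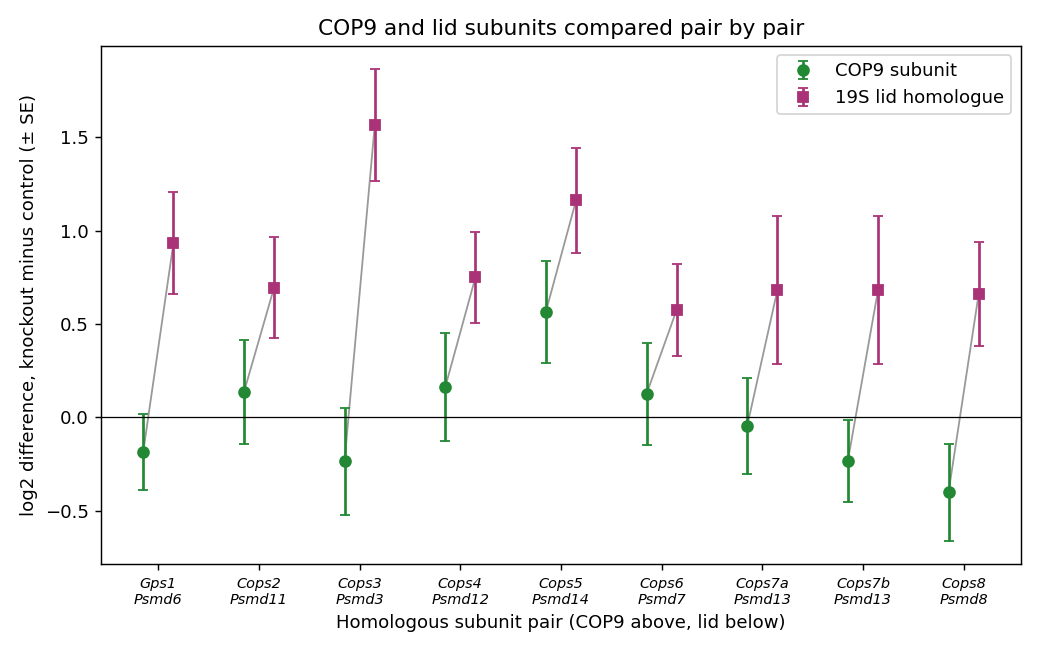
Log2 difference, knockout minus control (vertical axis), of each COP9 gene and its lid homologue, with bars of ± SE from limma and 3 arrays per group. Every lid gene shown lies above its COP9 homologue, from 0.45 for Cops6 and Psmd7 to 1.80 for Cops3 and Psmd3.

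The promoter windows of both complexes were compared by letters, as proteasome genes are known targets of the transcription factor NRF1 through antioxidant response elements. RefSeq windows of GRCm38.p6, from 250 bases before to 50 after the start site, were matched for 8 of 9 COP9 genes (10 windows) and 7 of 9 lid genes (7 windows), with Cops5, Psmd3 and Psmd7 unmatched. On either strand, the element TGACNNNGC was in 1 COP9 window (10%), in 2 lid windows (28.6%) and in 12.4% of all 32851 windows. The ETS core CCGGAAG was in 6 COP9 windows (60%), in 4 lid windows (57.1%) and in 8.86% of all. Both Gps1 windows overlap and hold the same ETS match. The TATA box TATAAA was in 0 COP9 windows, in 2 lid windows and in 13.6% of all. The median GC content was 59.3% for COP9, 60.7% for the lid and 52.7% for all. These are matches of letters and show no binding.

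Windows of 5 genes are printed 5′ to 3′ on the gene's strand, with matches to TGACNNNGC or CCGGAAG on either strand in capitals. In none of them did matches to both elements overlap. Cops2 (chr2:125859033-125859332, minus strand) and Psmd11 (chr11:80428365-80428664, plus strand) are shown because their pair had the smallest error, and each holds an ETS core close to the start site, at -9 and -11. Cops4 (chr5:100518059-100518358, plus strand) and Psmd12 (chr11:107479278-107479577, plus strand) are shown because the lid gene holds both elements and its homologue neither. Cops7a (chr6:124965217-124965516, minus strand) is shown as the COP9 window with the antioxidant response element.
Cops2: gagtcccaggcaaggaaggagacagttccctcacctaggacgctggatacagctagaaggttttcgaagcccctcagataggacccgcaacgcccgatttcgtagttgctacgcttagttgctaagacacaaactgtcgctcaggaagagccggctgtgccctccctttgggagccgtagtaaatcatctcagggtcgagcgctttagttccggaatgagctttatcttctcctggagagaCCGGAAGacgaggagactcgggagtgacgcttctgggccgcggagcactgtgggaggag
Psmd11: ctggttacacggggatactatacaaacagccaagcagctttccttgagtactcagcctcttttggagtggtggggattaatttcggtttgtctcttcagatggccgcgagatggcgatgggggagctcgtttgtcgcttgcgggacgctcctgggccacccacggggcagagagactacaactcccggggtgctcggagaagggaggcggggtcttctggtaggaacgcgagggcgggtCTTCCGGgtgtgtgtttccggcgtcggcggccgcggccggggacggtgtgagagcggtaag
Cops4: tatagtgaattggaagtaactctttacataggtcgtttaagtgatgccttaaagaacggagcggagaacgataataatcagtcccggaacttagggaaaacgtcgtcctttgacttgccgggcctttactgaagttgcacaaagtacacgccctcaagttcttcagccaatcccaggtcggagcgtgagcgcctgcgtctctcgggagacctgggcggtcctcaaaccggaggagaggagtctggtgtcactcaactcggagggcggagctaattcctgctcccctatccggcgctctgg
Psmd12: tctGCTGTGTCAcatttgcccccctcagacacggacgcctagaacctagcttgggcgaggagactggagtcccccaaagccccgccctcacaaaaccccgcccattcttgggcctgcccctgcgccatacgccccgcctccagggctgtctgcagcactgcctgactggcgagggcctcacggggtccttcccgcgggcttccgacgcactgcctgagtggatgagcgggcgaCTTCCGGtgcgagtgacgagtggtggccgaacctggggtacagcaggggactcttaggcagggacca
Cops7a: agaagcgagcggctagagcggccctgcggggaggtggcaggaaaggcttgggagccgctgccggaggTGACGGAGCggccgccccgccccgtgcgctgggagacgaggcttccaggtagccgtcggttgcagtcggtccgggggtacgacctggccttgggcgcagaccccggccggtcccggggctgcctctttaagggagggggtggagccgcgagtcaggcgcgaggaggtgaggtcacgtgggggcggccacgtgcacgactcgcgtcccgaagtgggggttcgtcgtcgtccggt

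Genes of the pathway on which COP9 acts were compared next. Of 13 listed genes of NEDD8 and its enzymes, 9 were tested. Of these, 5 had higher and 4 lower means, where 55.2% of all features had a higher mean. The median log2 difference was 4.9e-05, beside 0.039 over all features, and was -0.38 for knockout 3 alone. By limma 0 passed after adjustment. At an unadjusted p under 0.05, 0 were higher (2.82% of all features) and 1 was lower (4.38%). The highest were Dcun1d5 at 0.26 (SE 0.32) and Ube2m, the main NEDD8-conjugating enzyme, at 0.23 (SE 0.33). Nedd8 itself differed by -0.10 (SE 0.23).

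The lowest was Dcun1d2, a helper of NEDD8 transfer, which read -1.75, -1.32 and -2.38 on knockout arrays 1 to 3, against -1.28, -1.09 and -0.44 on the controls. Its groups did not overlap, as for 5.84% of all features in this direction, and 2 of 3 knockout arrays had it well above background. Dcun1d2 thus passed the filter only through the controls, the group in which it is higher. The difference was -0.88 (SE 0.34; limma, adjusted p = 0.636). The next lowest was Cand1, the exchange factor that binds cullins free of NEDD8, at -0.49 (SE 0.31). Cand1 was high on control 2, at 2.72, and lay between 1.44 and 1.83 on all other arrays.

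Of 13 listed cullins and their core partners, the substrates of COP9, 12 were tested. Of these, 9 had higher and 3 lower means, where 55.2% of all features had a higher mean. The median was 0.23, beside 0.039 over all features, and was -0.0016 for knockout 3 alone. By limma 0 passed in either direction, and 0 did at an unadjusted p under 0.05. Rbx1, the RING subunit that recruits the conjugating enzyme, read 2.64, 2.29 and 1.66 on knockout arrays 1 to 3, against 1.71, 1.60 and 1.60 on the controls. As with Cops5, knockout 1 and 2 were high and knockout 3 lay near the controls. Rbx1 had the highest difference of the list at 0.56 (SE 0.28; limma, adjusted p = 0.796) and Cul4a the next at 0.43 (SE 0.25). The lowest were Rnf7, the other RING subunit, at -0.13 (SE 0.28) and Ddb1, the adaptor of CUL4, at -0.036 (SE 0.21).

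The genes of eIF3, the other complex of this plan, were also near 0. Of 13 tested, 10 had higher and 3 lower means, where 55.2% of all features had a higher mean. The median was 0.093, beside 0.039 over all features, and was -0.17 for knockout 3 alone. Without knockout 2 the median was 8.6e-04, and without knockout 3 it was 0.17. By limma 0 passed, also at an unadjusted p under 0.05. The highest were Eif3d at 0.34 (SE 0.23) and Eif3m at 0.26 (SE 0.27), and the lowest Eif3b at -0.17 (SE 0.26) and Eif3i at -0.14 (SE 0.30). The eIF3 differences thus lay within the range of the COP9 ones and below the lid median.

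**Figure D3:**
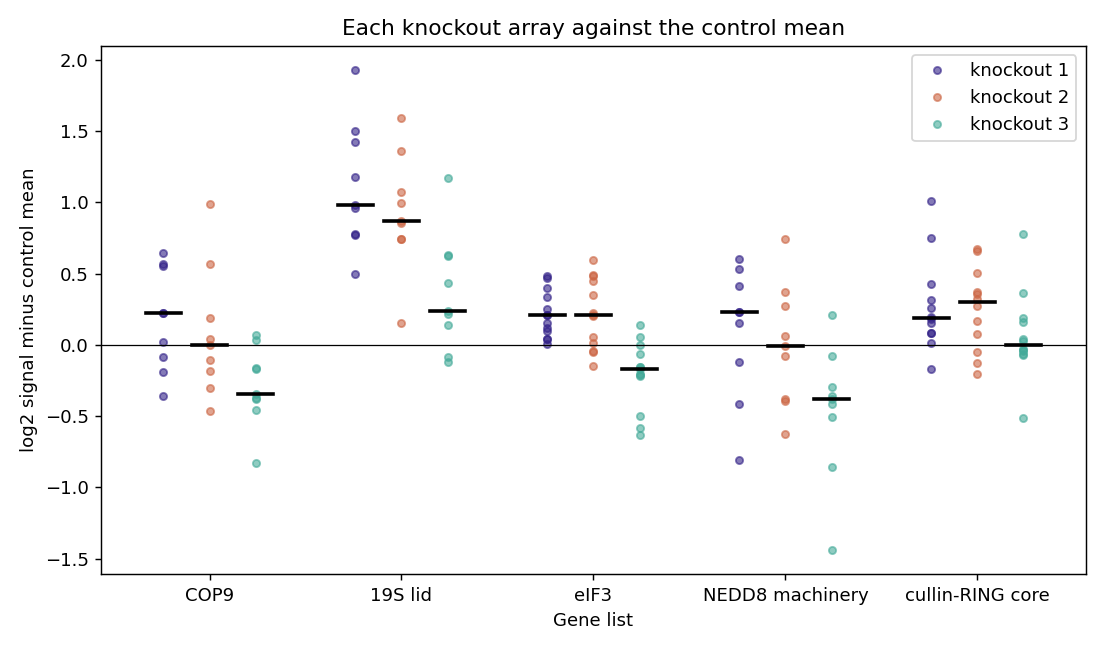
Log2 signal of each gene on knockout arrays 1, 2 and 3 minus its control mean (vertical axis), by gene list, with points for genes and lines for medians. The lid medians, 0.98, 0.87 and 0.24, lie above those of COP9, 0.22, -0.0041 and -0.34, on each array.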

How the data were processed

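The 6 scanner files hold linear intensity, 1 array each. Processed signals were background-subtracted and detrended with Agilent Feature Extraction 10.7.1.1, per the file headers; version 9.5.1.1 stands in the submitters' processing notes. The deposited value table, intensity with equal quantiles on all arrays, served as an alternative. Other columns used were the deposited flags per spot, 0 or 1.

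Main values were log2 of processed signal minus each array's 75th percentile. Control and outlier-flagged spots were left out, and spots of a probe averaged. A probe was tested if well above background on all 3 arrays of a group. Gene names were updated by transcript accession through RefSeq's GRCm38.p6 table (27235 of 55681 probes matched, 2838 renamed; 2744 had no name), and the brightest probe stood for a gene. Probe positions are the files' own, on mm9. Groups were compared with limma 3.58.1 in R 4.3.3, 2-sided, with Benjamini-Hochberg adjustment over 17953 features and a threshold of 0.05. Values of single further probes come from a fit over all tested probes. Pair differences took their SE from the 6 arrays and an exact permutation test. The number of arrays limits precision: the median SE was 0.28. Simulated data with known changes were used to test the code. Each sample is a separate mouse per the labels.

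The members and lists were chosen with earlier results of these data known. Named genes were all members with every probe, their lid homologues, Psmc4, Cops9, Usp15, Itpk1, the 2 highest and 2 lowest of each pathway list, and the 3 features most like Cops5. Nedd8 and single marker genes were named after their values were seen. Same-numbered samples did not deviate together (r of 0.073, -0.020 and 0.093 across genes), so no pairing was used. Alternatives covered background correction, normalization, filters, probe choice, array weights, slide row, the replicate block and each array left out; limiting marker averages and the interval count to genes above background on all 6 arrays was chosen after seeing the data.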

Additional observations from a re-analysis of the deposited data

How the results depend on the processing

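The count of COP9 genes past the threshold was 0 under all 21 alternatives, and in every pair the lid gene stayed above its COP9 homologue (9 of 9, or 8 of 8 where probes had to be above background on all 6 arrays, which left Cops7b untested). Over all features 0 were called, with 1292 at an unadjusted p under 0.05. The count of calls was 1 with quantile normalization, 1 in the deposited table, 2 with median scaling, 4 with an intensity trend and robust moderation, and 188 with array weights. With array weights Cops5 differed by 0.93 (limma, adjusted p = 0.0637, the lowest over its alternatives), Cops2 by 0.49 (limma, adjusted p = 0.196), Cops4 by -0.047 and Cops7a by 0.12. With the mean of probes Gps1 was at 0.039. With slide row as a block, and likewise within slide row 2, the COP9 median was -0.34, the lid median 0.24, the pair median 0.56, the NEDD8 machinery median -0.38, the cullin-RING median -0.0016 and the eIF3 median -0.17, while Cops2 was -0.38 and Cops6 -0.17. These fits rest on knockout 3 alone, assumed to vary like the other arrays. Leaving out each array in turn, the pair median ran from 0.57 to 0.98, the COP9 median from -0.12 to 0.10, the cullin-RING median from 0.12 to 0.28, the eIF3 median from 8.6e-04 to 0.17 and the NEDD8 machinery median from -0.12 to 0.065. Single genes that changed sign ran from -0.081 to 0.39 for Cops2, -0.039 to 0.36 for Cops4, -0.088 to 0.27 for Cops6 and -0.19 to 0.10 for Cops7a. The cause of these shifts was not tested. With the replicate block the pair median was 0.73, the COP9 median -0.046 and Cops5 0.57 (limma, adjusted p = 0.751), and 0 features were called; the samples share only a number.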
